A study of Mus musculus with 12 samples.

Results

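The insulin-like growth factor (IGF) family was followed through 10 genes, taken from the deposited table by their symbols, out of 47593 genes in all. They were the ligands Igf1 and Igf2, the receptors Igf1r and Igf2r, and the binding proteins Igfbp2, Igfbp3, Igfbp4, Igfbp5, Igfbp6 and Igfbp7. Each symbol matched a single row. RNA sequencing was performed on 12 mammary tumors from 9 MADM-mutant mice. In MADM (mosaic analysis with double markers), Cre recombinase exchanges marker cassettes between homologous chromosomes, so that a heterozygous cell can divide into a GFP+ cell null for Brca1 and p53 and an RFP+ wild-type sibling. Here Cre was driven by the MMTV promoter in the mammary epithelium, the Brca1 flox and p53 KO alleles were carried on the MADM-TG chromosome 11, and all mice were female. Unrecombined cells carry the mutant alleles in heterozygous form. The labels give the genotype as MADM RG;GR on a mixed background and no treatment. All tumors are of this 1 condition, no normal gland was analysed here, and the animal's age is not given for single tumors. A single tumor came from each of 7 mice, tumors 3 and 4 came from 1 mouse, and tumors 10, 11 and 12 from another. Unless stated otherwise, means and tests therefore refer to n = 9 mice with the tumors of a mouse averaged first. The comparison of same-mouse tumors used the 12 single tumors, as did the alternative with each tumor as a unit.

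IGF1 and IGF2 are secreted peptides that signal through the receptor tyrosine kinase IGF1R and promote growth and survival. IGF2R, the cation-independent mannose 6-phosphate receptor, carries lysosomal enzymes and removes IGF2 from outside the cell. The binding proteins hold the ligands in the extracellular space, and in the mammary gland IGFBP5 is known for its increase during involution, the regression of the gland after lactation. Igf2 and Igf2r are imprinted genes in the mouse, with Igf2 expressed mainly from the paternal and Igf2r mainly from the maternal allele.

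The values are TPM, the number of transcripts of a gene among 1000000 transcripts of a tumor after correction for transcript length, so that levels of different genes can be compared within a tumor. They sum to between 999770 and 999909 per tumor and hold no read numbers, so the depth behind each value is unknown. The epithelial marker genes (Epcam, Cdh1, Krt8, Krt18, Cldn3 and Cldn7) had a median of 313 TPM or more in 10 tumors, but of 3.39 TPM in tumor 8 and 0.195 TPM in tumor 2, where Epcam was listed at 0. The median of 5 B lymphocyte genes was 609 TPM in tumor 2 and no higher than 40.3 TPM in the rest. The labelled mammary tumor was therefore not recognizable from epithelial markers in tumor 2, and values without it are given beside several results that it moved. In these bulk samples, fewer cells of a type and less RNA per cell cannot be told apart.

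The 4 promoters that follow belong to 2 pairs of members whose levels are compared further on, Igf2r with Igfbp7 and Igfbp3 with Igfbp4. These pairs were picked after the values were seen, and neither passed adjustment over all pairs of members. Each run covers 300 bases of RefSeq on GRCm38.p6, from 250 bases before to 50 bases after an annotated start site, written 5′ to 3′ on the gene's strand. Capitals mark the GC box GGGCGG on either strand, which reads CCGCCC in the reverse direction. They also mark a TATA motif, either TATAAA or the variant TATATA, likewise searched on both strands.
Igf2r: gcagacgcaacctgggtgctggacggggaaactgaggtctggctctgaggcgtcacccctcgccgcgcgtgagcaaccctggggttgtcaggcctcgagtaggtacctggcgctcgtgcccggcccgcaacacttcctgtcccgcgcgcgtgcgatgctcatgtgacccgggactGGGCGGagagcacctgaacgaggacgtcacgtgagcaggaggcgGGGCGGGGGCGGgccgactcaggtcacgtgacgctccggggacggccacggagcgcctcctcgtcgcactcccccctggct
Igfbp7: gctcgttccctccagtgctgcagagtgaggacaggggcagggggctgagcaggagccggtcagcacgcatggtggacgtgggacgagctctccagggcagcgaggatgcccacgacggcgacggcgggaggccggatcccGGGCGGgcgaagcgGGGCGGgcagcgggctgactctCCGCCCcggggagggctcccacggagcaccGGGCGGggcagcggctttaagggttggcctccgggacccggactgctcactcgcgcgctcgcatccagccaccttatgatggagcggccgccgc
Igfbp3: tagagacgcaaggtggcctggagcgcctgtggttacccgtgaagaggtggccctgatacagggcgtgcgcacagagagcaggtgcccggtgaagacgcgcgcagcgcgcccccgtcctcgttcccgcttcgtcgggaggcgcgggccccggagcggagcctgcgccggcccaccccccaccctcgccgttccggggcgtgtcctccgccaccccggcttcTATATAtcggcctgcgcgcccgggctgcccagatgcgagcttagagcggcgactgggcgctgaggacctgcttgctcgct
Igfbp4: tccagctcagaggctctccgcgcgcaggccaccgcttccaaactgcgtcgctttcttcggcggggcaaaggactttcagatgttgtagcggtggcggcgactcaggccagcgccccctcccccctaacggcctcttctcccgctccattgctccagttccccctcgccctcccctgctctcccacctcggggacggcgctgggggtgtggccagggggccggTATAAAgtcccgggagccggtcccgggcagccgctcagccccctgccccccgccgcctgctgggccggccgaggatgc
The windows lie at chr17:12769657-12769956 (minus strand) for Igf2r, chr5:77407996-77408295 (minus strand) for Igfbp7, chr11:7213874-7214173 (minus strand) for Igfbp3 and chr11:99040994-99041293 (plus strand) for Igfbp4. Igf2r held 3 GC boxes and Igfbp7 held 4, neither with a TATA motif. Igfbp3 and Igfbp4 each held 1 TATA motif, starting 30 and 28 bases before the start site, and no GC box. A GC box was found in 35.7% and a TATA motif in 17.1% of all 32851 promoter windows of this length. These matches describe letters in the windows and not occupied sites.

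Igfbp7, Igfbp4, Igfbp3 and Igfbp5 had the highest mean levels of the family on the log2(TPM + 1) scale, whereas Igfbp2 lay below Igf2r and Igfbp6 near the ligands. Ordered by mean log2(TPM + 1) over mice, the levels were 8.32 ± 0.94 (SD, n = 9 mice) for Igfbp7, 7.02 ± 1.78 for Igfbp4, 6.55 ± 1.48 for Igfbp3, 6.44 ± 2.93 for Igfbp5, 5.31 ± 1.52 for Igf2r, 3.79 ± 1.41 for Igfbp2, 3.42 ± 0.73 for Igf1r, 2.51 ± 1.18 for Igfbp6, 2.39 ± 1.08 for Igf1 and 1.72 ± 2.30 for Igf2. The order is one of means only, since none of the 9 pairs of neighbours differed at an adjusted p under 0.05 (exact two-sided sign-flip permutation test over 9 mice, Benjamini-Hochberg over 10 pairs). The nearest to it were Igf1r above Igfbp6, by 0.90 ± 1.14 in 8 of the 9 (exact permutation p = 0.016, adjusted p = 0.078) but by 0.56 without tumor 2, where Igfbp6 was listed at 0, and Igfbp7 above Igfbp4, by 1.30 ± 1.47 in 7 of the 9 (exact permutation p = 0.043, adjusted p = 0.14). The order of Igfbp4, Igfbp3 and Igfbp5 rested in part on tumor 2, since without its mouse Igfbp4 minus Igfbp3 went from 0.47 to 0.11 and Igfbp3 minus Igfbp5 from 0.11 to -0.20, the latter also turning to -0.57 without the mouse of tumor 8. The members also varied widely between mice. Over all 9 mice, the SD of Igfbp5 exceeded that of 99.6% and the SD of Igf2 that of 98.5% of the 16779 genes tested (mean of at least 1 TPM), whose median SD was 0.57. By this measure Igf1r was the steadiest member at 64.2%. These SDs include the mouse of tumor 2 and were not computed without it. Leaving out tumor 2 lowered the fold between highest and lowest tumor from 35.2 to 5.14 for Igf2r and from 36.4 to 6.22 for Igfbp3. For Igf1r the fold stayed at 7.15, so by fold Igf1r was no longer the steadiest member without tumor 2.

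**Figure D1:**
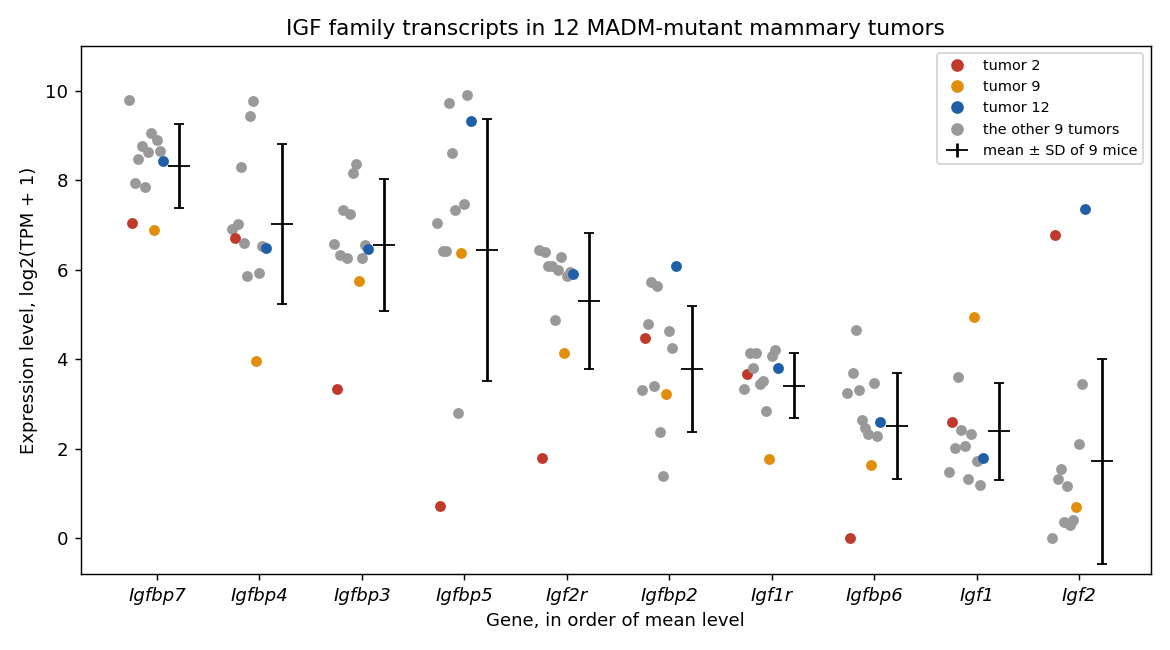
Level of each IGF family gene as log2(TPM + 1), with 1 point per tumor and, beside the points, a line and bar for the mean ± SD of 9 mice. Tumor 2 is the lowest for Igfbp3, Igfbp5, Igf2r and Igfbp6, tumor 9 is the highest for Igf1, and tumors 2 and 12 lie above all others for Igf2.

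Of the ligands, Igf1 (ENSMUSG00000020053, chromosome 10 from 87858265 to 87937042 of GRCm38, plus strand, overlapped by the antisense gene Igf1os) was listed above 1 TPM in every tumor. Its lowest value was 1.30 TPM in tumor 11, its median 3.10 TPM and its highest value 29.6 TPM in tumor 9. The next highest was tumor 4 with 11.2 TPM, so tumor 9 stood clear of the rest. Igf1 is made by fibroblasts and macrophages among other cells, but no relation was found with the median of 6 fibroblast genes (Pearson's r = 0.12, exact permutation p = 0.74; Spearman's rho = 0.17, p = 0.68; n = 9 mice) or of 5 macrophage genes (r = 0.18, exact permutation p = 0.61; rho = 0.033, p = 0.95), with adjusted p of 0.74 for both r over 8 relations and 0.90 and 0.95 for rho. Without the 2 mice farthest from the median of the list, r was -0.057 and 0.46.

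Igf2 (ENSMUSG00000048583, chromosome 7 from 142650766 to 142666816, minus strand) was split between tumors. It was at 164 TPM in tumor 12 and 109 TPM in tumor 2, and the next value was 9.85 TPM in tumor 11. Tumors 10, 4, 3 and 6 lay between 3.29 and 1.25 TPM. The remaining 5 tumors were under 1 TPM, and tumor 1 was listed at 0. Tumors 10, 11 and 12 came from the same mouse, so the largest and smallest Igf2 value within 1 animal differed 49.9-fold. Because of these 2 tumors the comparison of the ligands depended on the scale. On the log2(TPM + 1) scale Igf1 exceeded Igf2 by 0.68 ± 2.57 in 7 of the 9 mice (exact permutation p = 0.44, adjusted p = 0.55), with 1.28 without the mouse of tumor 2 and 0.23 without that of tumor 9, while the difference of mean TPM was -12.7. No relation of Igf2 to the fibroblast genes was found either (r = -0.51, exact permutation p = 0.15, adjusted p = 0.30; rho = -0.25, p = 0.52, adjusted p = 0.83; n = 9 mice), and r was 0.057 without the mouse of tumor 2 and -0.15 without the 2 farthest mice.

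Genes linked to Igf2 were read in the same tumors. H19 is an imprinted noncoding RNA gene that lies 72622 bases from Igf2 on the same chromosome and is expressed mainly from the maternal allele. It was highest in tumor 12 at 3663 TPM, against 945 TPM in tumor 1 as the next value and a median of 144 TPM. In tumor 2 it was only 102 TPM, so the tumors high in Igf2 differed in H19. Igf2bp1 and Igf2bp3 encode RNA-binding proteins that bind the Igf2 mRNA. Igf2bp1 reached 23.7 TPM in tumor 12, with 1.67 TPM as its next value, and was listed at 0 in tumor 2. Igf2bp3 reached at least 12.6 TPM in both tumors 2 and 12, with 1.73 TPM as its next value, which is the division seen for Igf2. Igf2bp2 followed another pattern, with 0.675 TPM in tumor 9 and 70.6 TPM in tumor 1. The antisense gene Igf2os, which overlaps Igf2, was at 20.05 TPM in tumor 2, 1.83 TPM in tumor 12 and at most 0.323 TPM elsewhere. The libraries were stranded, but the use of strand in the counting is not stated in the sources used here, so reads of Igf2 and Igf2os may not be fully separated.

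**Figure D2:**
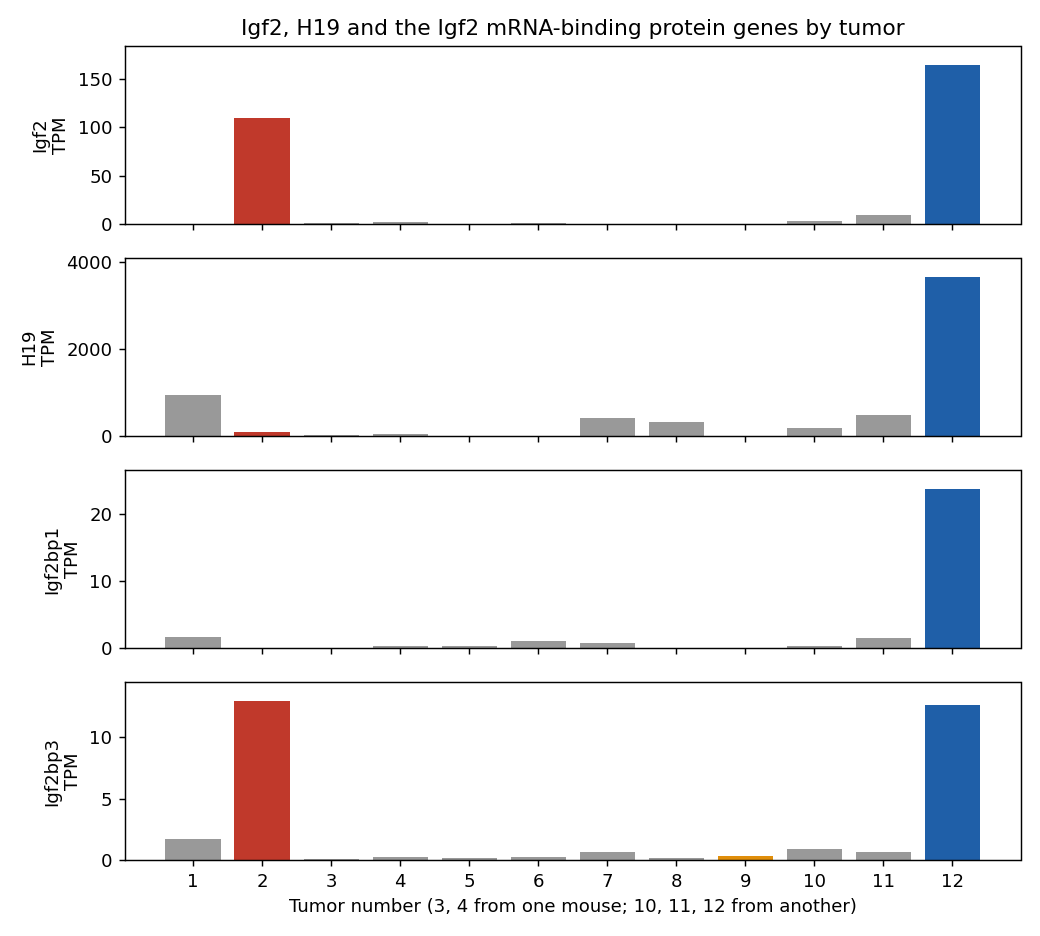
Levels of Igf2, H19, Igf2bp1 and Igf2bp3 in TPM, 1 bar per tumor, with tumor 2 in red, tumor 9 in orange and tumor 12 in blue. Igf2 and Igf2bp3 are high in tumors 2 and 12, whereas H19 and Igf2bp1 are highest in tumor 12 and not raised in tumor 2.

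Of the receptors, Igf2r (ENSMUSG00000023830, chromosome 17 from 12682406 to 12769664, minus strand) was the more abundant in 11 of 12 tumors. It ranged from 2.45 TPM in tumor 2 and 16.8 TPM in tumor 9 to 86.3 TPM in tumor 1, with a median of 61.5 TPM. The signalling receptor Igf1r (ENSMUSG00000005533, chromosome 7 from 67952827 to 68233668, plus strand) was lowest in tumor 9 (2.44 TPM) and highest in tumor 11 (17.4 TPM), with a median of 12.4 TPM. Tumor 2, at 11.8 TPM, was within the range of the others for Igf1r and far below them for Igf2r. The Igf2r to Igf1r ratio was 0.208 in tumor 2 and between 2.90 and 12.5 in the other 11 tumors. Igf1r minus Igf2r was -1.89 ± 1.55 on the log2(TPM + 1) scale, negative in 8 of the 9 mice (exact permutation p = 0.016, adjusted p = 0.078), and -2.37 without tumor 2. Igf2r overlaps the antisense transcript Airn, which ran from 0.106 TPM (tumor 2) to 83.1 TPM (tumor 5), with the same limit on strand.

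The binding proteins together ranged from 265 TPM in tumor 2 and 278 TPM in tumor 9 to 1739 TPM in tumor 8, with a median of 1112 TPM, whereas the ligands together ranged from 1.74 TPM in tumor 7 to 114 TPM in tumor 2 and 167 TPM in tumor 12, with a median of 5.11 TPM. Which of them led differed between tumors. Igfbp7 was the highest in 6 tumors, Igfbp5 in 4 and Igfbp4 in 2. Igfbp7 made up 25.5% to 70.9% of the sum, while Igfbp4 varied from 5.26% to 49.9% and Igfbp5 from 0.248% to 61.3%. Igfbp2 and Igfbp6 never exceeded 8.06% and 2.43%.

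**Figure D3:**
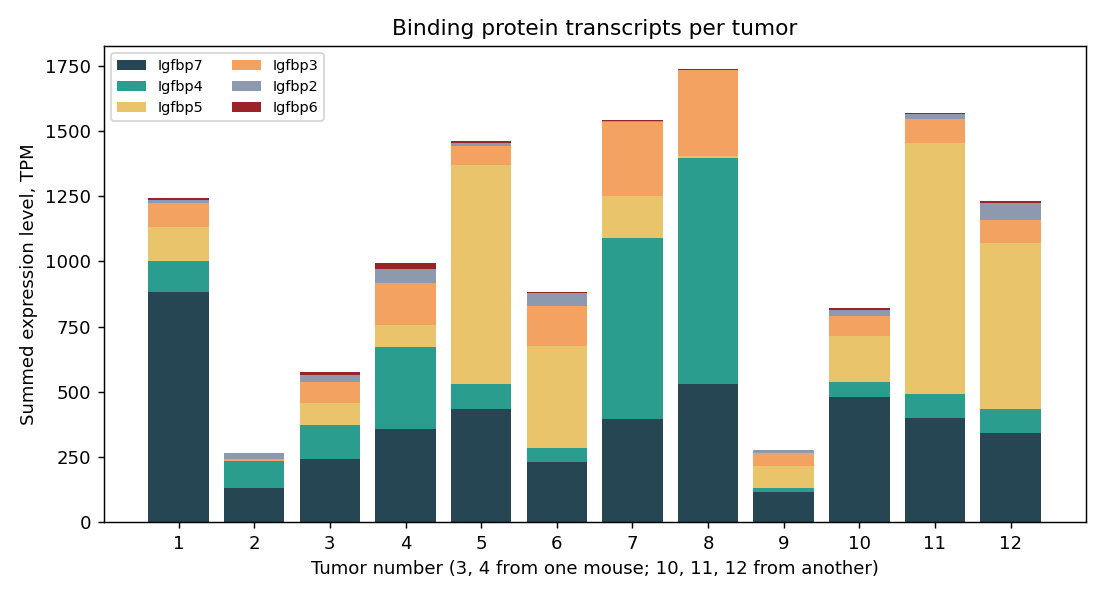
Summed TPM of the 6 binding protein genes in each tumor, divided by gene. Igfbp5 makes up the largest section in tumors 5, 6, 11 and 12, Igfbp4 in tumors 7 and 8, and Igfbp7 in the other 6 tumors.

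Igfbp7 (ENSMUSG00000036256, chromosome 5 from 77349240 to 77408041, minus strand, overlapped on the other strand by Polr2b and Gm34648) encodes a secreted protein of low IGF affinity that is common in vessel walls. It had the smallest SD of the binding proteins over 9 mice and ran from 117 TPM in tumor 9 and 130 TPM in tumor 2 to 881 TPM in tumor 1, with a median of 377 TPM. That rank depends on tumor 2, without which the fold between highest and lowest tumor was 7.53 for Igfbp7 and 6.22 for Igfbp3. Its relation to 5 endothelial genes was not distinguished from the spread between mice (r = 0.60, exact permutation p = 0.089, adjusted p = 0.24; rho = 0.47, p = 0.21, adjusted p = 0.57; n = 9 mice), and r was 0.36 without the mouse of tumor 2 and -0.21 without the 2 mice farthest from the median. Leaving out the mouse of tumor 1 instead raised r to 0.78 (exact permutation p = 0.019, adjusted p = 0.078).

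Igfbp3 (ENSMUSG00000020427, chromosome 11 from 7206086 to 7213923, minus strand), the main IGF carrier in the circulation, followed the endothelial genes closely. It was lowest in tumor 2 at 9.06 TPM and in tumor 9 at 53.0 TPM, had a median of 90.3 TPM, and was highest in tumor 7 at 284 TPM and tumor 8 at 330 TPM. The median of the endothelial genes (Pecam1, Cdh5, Kdr, Tek and Emcn) was likewise lowest in tumor 2 at 2.57 TPM and highest in tumor 8 at 31.8 TPM, the next lowest being tumor 9 at 8.26 TPM. The genes of the list did not all go the same way in tumor 2, where Pecam1 was at 43.1 TPM, the second highest of the 12 tumors, and Cdh5, Kdr and Emcn were at their lowest. Across mice r was 0.97 (exact permutation p = 9.4e-05, adjusted p = 0.00075 over 8 relations) and rho was 0.90 (exact permutation p = 0.0020, adjusted p = 0.016; n = 9 mice). Without the mouse of tumor 2, r was 0.90 (exact permutation p = 0.0025) and rho 0.86 (p = 0.011; n = 8 mice), and without the 2 farthest mice, those of tumors 2 and 9, r was 0.86. With the mean of the list in place of its median, r was 0.90 (exact permutation p = 0.0014, adjusted p = 0.011; n = 9 mice). An r of 0.7 or more with this list was found for 12.3% of 16774 genes, so many genes followed it, but only 4 of them had a higher r than Igfbp3. No endothelial gene was at 0 in any tumor, and the summed list ran from 50.2 TPM in tumor 5, with 51.5 TPM in tumor 2, to 167 TPM in tumor 8. Igfbp3 was set against no other list, so the relation is not shown to be particular to endothelial genes. The median of the macrophage genes was likewise lowest in tumor 2 (52.9 TPM) and highest in tumor 8 (222 TPM). Whether endothelial cells carry the Igfbp3 transcripts was not tested.

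**Figure D4:**
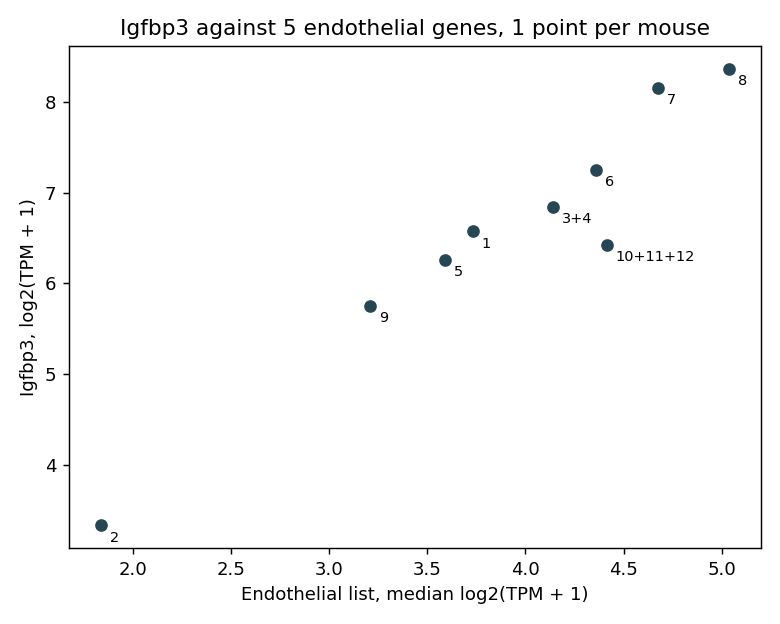
Igfbp3 level against the median level of 5 endothelial genes, both as log2(TPM + 1), with 1 point per mouse labelled by its tumor numbers. The points rise together from the mouse of tumor 2 to those of tumors 7 and 8 (r = 0.97, n = 9 mice), and the mouse of tumors 10, 11 and 12 lies below the others of similar endothelial level.

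Igfbp4 (ENSMUSG00000017493, chromosome 11 from 99041244 to 99054392, plus strand), which restrains IGF action until the protease pappalysin (Pappa) cleaves it, was high in the same tumors as Igfbp3. It reached 691 TPM in tumor 7 and 869 TPM in tumor 8, with 314 TPM in tumor 4 as the next value, a median of 99.6 TPM and a minimum of 14.6 TPM in tumor 9. Tumor 2, the lowest in Igfbp3, had 103 TPM of Igfbp4 and stood in the middle. No relation of Igfbp4 to the fibroblast genes was found over 9 mice (r = 0.16, exact permutation p = 0.68, adjusted p = 0.74; rho = 0.37, p = 0.34, adjusted p = 0.67), but r was 0.84 without the mice of tumors 2 and 7, the 2 farthest from the median, and -0.20 without the mouse of tumor 8. Tumor 7, with the second-highest Igfbp4, had a fibroblast list of only 21.7 TPM, against 333 TPM in tumor 8 and 442 TPM in tumor 4.

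Igfbp5 (ENSMUSG00000026185, chromosome 1 from 72857932 to 72874884, minus strand) was the most variable member. It was at 961 TPM in tumor 11, 839 TPM in tumor 5, 637 TPM in tumor 12 and 391 TPM in tumor 6, had a median of 145 TPM, and was at 5.95 TPM in tumor 8 and 0.655 TPM in tumor 2. The highest and lowest values differed 1467-fold as listed, a ratio that rests on a value under 1 TPM and is not exact. Without tumor 2 they differed 162-fold. The 2 lowest tumors were those with the lowest epithelial markers. In the mouse with 3 tumors it ranged from 176 TPM in tumor 10 to 961 TPM in tumor 11, a 5.47-fold difference, whereas tumors 3 and 4 had 85.2 and 85.1 TPM. No relation of Igfbp5 to the fibroblast genes was found (r = 0.19, exact permutation p = 0.64, adjusted p = 0.74; rho = 0.067, p = 0.88, adjusted p = 0.95; n = 9 mice), with r = 0.57 without the mouse of tumor 8, -0.54 without that of tumor 2 and -0.72 without those of tumors 2 and 7.

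Igfbp2 (ENSMUSG00000039323, chromosome 1 from 72824503 to 72852474, plus strand) is the neighbour of Igfbp5, 5457 bases away, but was high in partly different tumors. It ranged from 1.64 TPM in tumor 8 and 4.18 TPM in tumor 7 to 66.9 TPM in tumor 12, with a median of 19.7 TPM. Tumors 8 and 7 were thus the lowest in Igfbp2 and the highest in Igfbp3 and Igfbp4. Tumor 2 had 21.3 TPM and lay near the median. Igfbp6 (ENSMUSG00000023046, chromosome 15 from 102144362 to 102149511, plus strand), which prefers IGF2 to IGF1, was listed at 0 in tumor 2 and ran from 2.13 TPM in tumor 9 to 24.2 TPM in tumor 4, with a median of 5.16 TPM. Its relation to the fibroblast genes, r = 0.69 (exact permutation p = 0.040, adjusted p = 0.16; rho = 0.57, p = 0.12, adjusted p = 0.48; n = 9 mice), was 0.38 without the mouse of tumor 2 and 0.35 without the mice of tumors 2 and 7. It passed without the mouse of tumor 8, with r = 0.84 (exact permutation, adjusted p = 0.036), and with each tumor as a unit, with r = 0.74 (permutation test, adjusted p = 0.027). Over all 9 mice, none of the 5 members set against the fibroblast list, and not Igf1 against the macrophage list, reached an r of 0.7, which 4.43% and 5.85% of all genes tested did.

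Among the 45 pairs of members, a set of relations chosen after the values were seen, 3 had an r of 0.7 or more over 9 mice and 4 over the 8 mice without that of tumor 2. Over all pairs of the genes tested this share was 5.36% and 5.52%. Igf2r with Igfbp7 was the only pair to reach it in both, with r = 0.83 (exact permutation p = 0.0013, adjusted p = 0.060 over 45 pairs) and rho = 0.87 (p = 0.0045, n = 9 mice), and r = 0.90 without tumor 2 (exact permutation p = 0.0016, n = 8 mice). Igfbp3 with Igfbp4 went from r = 0.56 (exact permutation p = 0.12, n = 9 mice) to 0.88 without tumor 2 (exact permutation p = 0.0044, n = 8 mice), since in tumor 2 Igfbp3 was low and Igfbp4 was not. In the opposite direction, 3 pairs had an r of -0.7 or less over 9 mice and 3 over 8 mice, against 4.34% and 4.63% of all pairs of genes tested. Over 9 mice these were Igf2 with Igfbp3 (r = -0.76) and with Igf2r (r = -0.73), which came to -0.25 and -0.041 without tumor 2, and Igf1 with Igfbp7, the only one to reach it in both (r = -0.71, exact permutation p = 0.026, adjusted p = 0.28, rho = -0.58 with p = 0.11, n = 9 mice; r = -0.79 without tumor 2). No pair of members had an adjusted p under 0.05. An unadjusted p under 0.05 was found for 7 of the 45, of which 3 were negative, and for 13.9% of the pairs of a member with any other gene tested, so this count is near the background.

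Tumors of the same mouse were compared with tumors of different mice. Over all genes tested the median difference was 0.31 within a mouse and 0.63 between mice on the log2(TPM + 1) scale. For Igf2r the mean absolute difference was 0.12 over the 4 same-mouse pairs and 1.33 over the 62 other pairs (exact permutation of the animal labels, one-sided, p = 0.011, adjusted p = 0.14 over 16779 genes). For Igfbp3 it was 0.40 and 1.43 (same exact test, p = 0.045, adjusted p = 0.18). These were the 2 of 10 members with an unadjusted p under 0.05, against 26.3% of all genes, so the members did not exceed the background. Without tumor 2, the same-mouse minus other difference went from -1.21 to -0.63 for Igf2r (exact permutation p = 0.019) and from -1.03 to -0.58 for Igfbp3 (exact permutation p = 0.078), while Igfbp4 stood at -1.36 (exact permutation p = 0.044), so that again 2 of 10 members had an unadjusted p under 0.05, against 21.97% of genes. None passed after adjustment, and neither did any other gene (0%), 4419 genes having an unadjusted p under 0.05. For Igf2 no difference was detected, with 2.69 between tumors of the same mouse and 2.60 between others (same exact test, p = 0.49, adjusted p = 0.55). The sign of same-mouse minus other turned with a pseudocount of 0.1 (from 0.088 to -0.89), and the difference was 0.65 without tumor 2. Most of the 4 same-mouse pairs came from the mouse of tumors 10, 11 and 12, where Igf2 differed up to 49.9-fold. Tumors 3 and 4 differed 1.29-fold, so the same-mouse mean of Igf2 mainly reflects the other mouse.

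**Figure D5:**
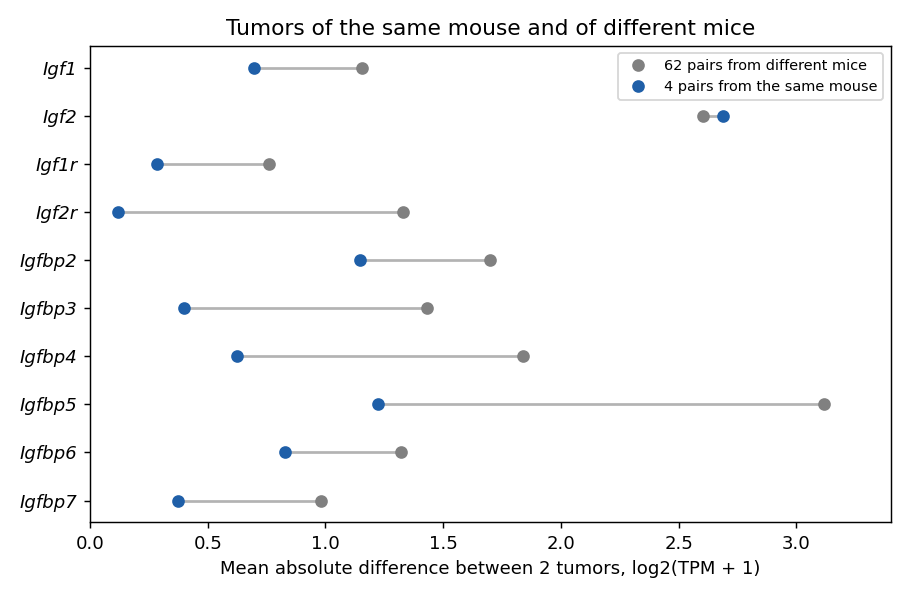
Mean absolute difference in log2(TPM + 1) between pairs of tumors, for the 4 pairs from the same mouse (blue) and the 62 pairs from different mice (grey). The distance between the points is wide for Igf2r (0.12 and 1.33) and small for Igf2 (2.69 and 2.60).

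Tumor 9 had the highest Igf1 and the lowest Igf1r, Igfbp4 and Igfbp7. The share of all genes lowest in tumor 9 was not computed, so these low values have no background beside them. Of 25 other pathway genes, all found in the table, 10 were at 1 TPM or more in every tumor, 11 in some tumors and 4 in none, among them the binding protein gene Igfbp1, listed at 0 throughout. Of the 20 with a mean of at least 1 TPM, tumor 9 held the highest value of 5, against 14.1% of all genes tested, and for Pik3ca among them it was nearly level with tumor 1 (39.8 and 39.7 TPM). Among all 25, tumor 9 held the lowest value of 4, which were H19, Igf2bp2, Irs1 and Grb14. By Dixon's ratio, a measure of how far an extreme mouse lies from its neighbour, 2 of the 10 members had a mouse standing apart, Igf1 (tumor 9, high) and Igf2r (tumor 2, low), against 18.5% of all genes tested. Igfals, whose product stabilizes circulating IGF complexes with IGFBP3, was at 109 TPM there and at most 9.73 TPM elsewhere. Pappa was at 39.2 TPM against at most 6.98 TPM, and Stc2, which encodes an inhibitor of pappalysin, at 76.4 TPM against 42.5 TPM in tumor 3. The receptor substrates divided, with Irs2 at 58.4 TPM against at most 12.3 TPM elsewhere and Irs1 at 0.367 TPM against 11.1 TPM or more elsewhere. Tumor 9 also had 40.3 TPM as the median of the B lymphocyte genes, the second highest. The insulin receptor gene Insr ran from 7.25 TPM (tumor 2) to 43.9 TPM (tumor 1), with 20.7 TPM in tumor 9.

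The genes whose pattern over mice was most like that of each member were sought among the 12756 genes averaging at least 5 TPM, using the smaller of Pearson's r over 9 mice and over the 8 without tumor 2, given as a description. For Igfbp3 these were Sun1 (0.97), Tnrc18 (0.97) and Mical2 (0.96), and for Igfbp6 the Wnt receptor gene Fzd1 (0.97), Espn (0.95) and Pi16 (0.94). For Igfbp7 they were Ogfod1 (0.96), Uaca (0.96) and the lactate transporter gene Slc16a3 (0.95), and for Igfbp5 March3 (0.95), Arhgef3 (0.95) and Ttc39aos1 (0.94). Igfbp4 was nearest to D230025D16Rik (0.95), Rtca (0.95) and Hsbp1 (0.94), and Igfbp2 to 1700021F05Rik (0.90), Gm12669 (0.89) and Pdss2 (0.88). Among the receptors, Igf1r was nearest to 2810410L24Rik (0.96), 2700038G22Rik (0.96) and the splicing regulator gene Ptbp1 (0.95), and Igf2r to Noct (0.95), Ninl (0.94) and Pir (0.93). Among the ligands, Igf1 was nearest to Tmem8 (0.97), Umad1 (0.97) and Tmem64 (0.96). Igf1 stood apart in the mouse of tumor 9, which was not left out here, so these r values can rest on that mouse. Igf2 had the weakest likenesses of the ligands and receptors, with Rpl31-ps8 (0.89), Xpo4 (0.87) and Rpl31-ps9 (0.85), of which the 2 pseudogenes share sequence with Rpl31.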

How the data were processed

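Poly(A) RNA of 12 tumors was sequenced with stranded libraries and paired-end reads. The authors trimmed adapters, aligned with HISAT2 against transcripts of the GRCm38 build and derived TPM in StringTie (version 2.1.6), so the deposited values are TPM per Ensembl gene and tumor, with no pooling. The summing of transcripts per gene is not given in the sources used here. TPM is relative and keeps no depth, so no count model, interval or floor was used. Columns were matched to tumors by the animal and suffix in the labels.

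Values were analysed as log2(TPM + 1), a scale that understates differences of low genes. Tumors of a mouse were averaged, except in the comparison of same-mouse tumors. Pairs of genes were compared with exact sign-flip permutation tests, relations with exact permutation of the pairings (100000 resamples where each tumor was a unit), and same-mouse tumors with exact permutation of the animal labels (7920 assignments) on the 16779 genes that averaged at least 1 TPM. The pair Igf1 and Igf2 is both a pair by role and a pair of neighbours and was counted once, giving 10 pairs. Whether the samples of different mice share a litter or day is not stated, so p-values measure the spread between these mice. The members and lists were chosen with earlier results of these data known. Genes given with values are the members, the pathway and marker lists, the 3 genes most like each member, and Igf2os and Airn. Igf2os and Airn each overlap a member and belong to none of the other sets. Their choice was not fixed before the data were read. The pairs of members were added after the values were seen.

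The marker lists were epithelial, fibroblast, endothelial, pericyte, macrophage, B lymphocyte, adipocyte, skeletal muscle and myoepithelial genes. Median TPM per tumor ranged from 0.195 to 672, 7.08 to 442, 2.57 to 31.8, 3.69 to 32.6, 52.9 to 222, 0 to 609, 0 to 32.7, 0.0094 to 77.4 and 0.416 to 9.05 in that order. Locations came from GENCODE vM21 (GRCm38), and promoters from RefSeq, which matched 10 of 10 members. Alternatives were a pseudocount of 0.1, each tumor as a unit, each mouse left out, TPM rescaled without 37 mitochondrial genes (a factor of 1.04 to 1.08), linear TPM, the mean of a list, other filters and leaving out tumor 2. Tests were tried on simulated data. Scripts ran under Python 3.11.15 with scipy 1.17.1, numpy 2.4.6, pandas 2.3.3 and, for plots, matplotlib 3.10.9.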

Additional observations from a re-analysis of the deposited data

Results flagged for a closer look

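Dixon's ratio, computed on the log2(TPM + 1) scale, sets the gap between an extreme mouse and its neighbour against the whole range, and it picked out 2 of the 10 members. Chance picks out about 1 in 20, but in these tumors 18.5% of the 16779 genes tested were picked out, so 2 of 10 is near the share of all genes. Igf1 was highest in the mouse of tumor 9, at 4.94 with 2.81 as the nearest mouse. Igf2r was lowest in the mouse of tumor 2, at 1.79 with 4.15 as the nearest mouse.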

How the results depend on the processing

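Igfbp3 with the endothelial genes kept its call under every alternative run, with r between 0.90 and 0.99 when each mouse was left out. No pair of genes passed with all mice or with any mouse left out; with 8 mice and 10 pairs the smallest adjusted p that 1 pair alone can reach is above the threshold. With each tumor as a unit, which counts tumors of a mouse as independent, Igfbp7 minus Igfbp4 (1.41), Igf1r minus Igfbp6 (0.87), Igf1r minus Igf2r (-1.92) and Igfbp6 with the fibroblast genes (r = 0.74) passed. The last also passed without the mouse of tumor 8 and ranged from 0.38 to 0.84 over mice left out. Directions turned for Igfbp3 minus Igfbp5 with each tumor as a unit (-0.29), in linear TPM (-120) and over mice left out (-0.57 to 0.56), for Igfbp6 minus Igf1 with a pseudocount of 0.1 (-0.10), in linear TPM (-0.094) and over mice left out (-0.085 to 0.54), for Igf1 minus Igf2 in linear TPM (-12.7), and for the same-mouse difference of Igf2 with a pseudocount of 0.1 (-0.89). They also turned over mice left out for Igf1 with fibroblast (-0.054 to 0.27) and macrophage genes (-0.22 to 0.33) and for Igf2 (-0.71 to 0.057), Igfbp4 (-0.20 to 0.52) and Igfbp5 (-0.54 to 0.57) with fibroblast genes. None of these was called in any setting, and the cause was not tested. The other values, 223 for comparisons and numbers of genes and 47 for single genes in the same-mouse test, were unchanged. Comparisons and single genes kept their direction and side of the threshold, and numbers of genes with a p under 0.05 stayed similar. As depth is unknown, values under 1 TPM cannot be separated from 0. No paired analysis was possible because there is 1 condition and no groups to pair, although genes were compared within mice.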

Other observations

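Other genes of the pathway list were high in 1 or 2 of the tumors. Stc1, which encodes a stanniocalcin that inhibits pappalysin, was at 93.8 TPM in tumor 8 and at most 3.10 TPM in the other 11 tumors. Akt1, the kinase gene downstream of the receptors, was at 629 TPM in tumor 3 and 495 TPM in tumor 4, which came from 1 mouse, and between 151 and 298 TPM elsewhere. Grb10, an imprinted adaptor gene that dampens receptor signalling, was at 22.2 TPM in tumor 7 and 20.9 TPM in tumor 4, whereas tumor 3 of the same mouse had 4.91 TPM. Grb14, a related adaptor gene, was at 11.1 TPM in tumor 6 and at most 3.12 TPM elsewhere. The downstream genes Pik3ca (27.1 to 39.8 TPM) and Shc1 (51.6 to 166 TPM) varied less.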
